A study of Mus musculus with 11 samples.

Results

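Large-conductance (BK), small-conductance (SK) and related potassium channels were examined in mPFC CRF1+ neurons, the cells of the medial prefrontal cortex that express the type 1 receptor for corticotropin-releasing factor. The 10 genes were taken by name from the 53465 genes counted, with earlier results of these data known. They were Kcnma1, the BK pore subunit, its beta subunits Kcnmb1, Kcnmb2 and Kcnmb4, the SK pore subunits Kcnn1, Kcnn2 and Kcnn3, the intermediate-conductance relative Kcnn4, and the Slo2 pore subunits Kcnt1 (Slack) and Kcnt2 (Slick). RNA was sequenced from GFP-positive cells sorted from 6 naïve and 5 withdrawn mice, 1 mouse per library. All were adult male CRF1:GFP reporter mice, so cells were chosen by the GFP reporter and not by the receptor itself. Withdrawn mice had received injections of ethanol with pyrazole, an inhibitor of alcohol dehydrogenase, and several weeks of intermittent ethanol vapor, followed by several days of forced abstinence. Naïve mice also received pyrazole, and were kept in chambers with air. The comparison addresses which ion channel transcripts differ in withdrawal, a state in which the study recorded the excitability of these neurons.

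BK channels open when the membrane is depolarized and internal calcium is high, and they shorten the action potential and shape the fast afterhyperpolarization. SK channels do not sense voltage. They open when calcium binds to the calmodulin they carry, and they slow repeated firing through the medium afterhyperpolarization. Slack and Slick, although relatives of BK by sequence, are opened by internal sodium.

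Each library held between 7351567 and 22244869 counts on genes. In a single library 3 counts corresponded to 0.140 to 0.369 CPM (counts scaled to library size), a floor that covers counting error only. Naïve mouse 5 stood apart, with 15585 genes detected against 22551 to 31830 in the other 10 mice. For withdrawn mice 3, 4 and 5 a further label reads control, against their titles and treatment. The target receptor Crhr1 was at 92.7 ± 21.5 CPM in naïve and 89.3 ± 33.6 CPM in withdrawn mice (SD, n = 6 and 5). Slc17a7, the vesicular glutamate transporter of cortical pyramidal neurons, was at 1435 ± 346.0 and 1362 ± 447.4 CPM, and Gad2, an enzyme of GABA synthesis, was at 39.9 ± 21.5 and 57.5 ± 47.3 CPM. In bulk samples of this kind fewer cells of a type and less RNA per cell cannot be told apart.

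Each pore subunit has a stretch of codons for the potassium selectivity filter, the part of the pore that lets potassium pass and holds back sodium, and these codons are shown because they set the pore subunits apart from the beta subunits, in which no such stretch was found. Each line gives 42 bases of coding sequence from GENCODE M21 transcripts on GRCm38, 5′ to 3′ on the coding strand, with the 18 bases of the filter in capitals.
Kcnma1: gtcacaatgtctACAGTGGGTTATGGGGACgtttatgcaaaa
Kcnn1: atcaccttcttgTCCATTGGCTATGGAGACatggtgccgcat
Kcnn3: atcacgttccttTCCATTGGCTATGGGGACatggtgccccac
Kcnn4: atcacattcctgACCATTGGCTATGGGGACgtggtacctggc
Kcnt1: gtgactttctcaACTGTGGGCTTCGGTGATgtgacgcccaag
Kcnt2: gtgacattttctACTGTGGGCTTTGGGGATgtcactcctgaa

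The filter began at codon 352 of 1242 in Kcnma1, at codon 371 of 581 in Kcnn1 and at codon 508 of 732 in Kcnn3. It began at codon 248 of 425 in Kcnn4, 295 of 1238 in Kcnt1 and 242 of 1135 in Kcnt2. In Kcnn2 it began at codon 618 of 839, and its bases are neither shown nor compared here. Of the 18 filter bases, Kcnn1 and Kcnn3 shared 17, Kcnn3 and Kcnn4 shared 17, and Kcnn1 and Kcnn4 shared 16. Kcnt1 and Kcnt2 shared 16 of 18. Against Kcnma1, 12 were shared by Kcnn1 and by Kcnt1, 13 by Kcnn3, and 14 by Kcnn4 and by Kcnt2.

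The genes lie on 9 chromosomes of GRCm38, with Kcnmb2 and Kcnn3 both on chromosome 3. Kcnma1 spans chr14:23289431-24014491 on the minus strand with 16976 exonic bases, and Kcnmb4 spans chr10:116417861-116473878 on the minus strand with 3324. Of the Kcnmb4 exonic bases, 1048 (31.5%) also belong to exons of the antisense genes Kcnmb4os1 and Kcnmb4os2. The library kit does not mark strand, so on these shared bases reads of Kcnmb4 and of the antisense genes cannot be told apart. Kcnma1 shares 1016 exonic bases with a gene on the opposite strand, and Kcnn2 (chr18:45268860-45686024, plus strand, 7468 exonic bases) shares 284. Kcnmb1 (chr11:33963013-33973641, plus strand) lies within the span of Kcnip1, and Kcnmb2 lies at chr3:31902507-32200180 on the plus strand. Kcnn1 lies at chr8:70842049-70863258 on the minus strand, Kcnn3 at chr3:89520164-89675132 and Kcnn4 at chr7:24370263-24386690, both on the plus strand. Kcnt1 (chr2:25863734-25918273) and Kcnt2 (chr1:140246158-140612067) are also on the plus strand. The promoter sequence also differed among the genes. In the 250 bases before the RefSeq start (GRCm38.p6), the dinucleotide CG occurred 43 times in Kcnmb4 and 31 times in Kcnma1, against a median of 6 over 32851 promoters, of which 0.712% and 5.19% held as many. Kcnmb1 held 1.

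Kcnma1 was the most abundant of the 10 genes per length of exon, and Kcnmb1 and Kcnn4 were the least abundant. To compare genes, CPM was divided by exonic length in kb. This length counts all annotated exons of a gene and not those of the transcripts present, so the order and the shares below depend on it. In CPM, Kcnn2 was above Kcnmb4 in the naïve mean (32.1 and 16.6), whereas per kb it was below. Kcnma1 was at 13.2 ± 3.15 CPM per kb in naïve mice (SD, n = 6) and 11.6 ± 2.70 in withdrawn mice (n = 5). Its naïve mean was above that of 76.4% of 17063 tested genes with a known length. Kcnt1 followed with 6.42 ± 2.98 and 7.77 ± 2.03, and was below Kcnma1 in 6 of 6 naïve and 4 of 5 withdrawn mice. Kcnmb4 was at 4.98 ± 1.18 and 3.75 ± 1.01, Kcnn2 at 4.29 ± 2.16 and 3.12 ± 0.855, and Kcnt2 at 3.66 ± 1.64 and 4.40 ± 1.28. The ranges of these 3 neighbours overlapped in each group, but within mice Kcnn2 was above Kcnt2 in 2 of 6 naïve and 0 of 5 withdrawn mice. Kcnn1 was at 2.83 ± 1.55 and 1.66 ± 1.15 CPM per kb, and was above Kcnn3 in 6 of 6 naïve and 4 of 5 withdrawn mice. Kcnn3 (0.870 ± 0.513 and 0.727 ± 0.231) and Kcnmb2 (0.609 ± 0.516 and 0.629 ± 0.351) overlapped. Kcnmb1 (0.239 ± 0.330 and 0.0293 ± 0.0656) and Kcnn4 (0.113 ± 0.126 and 0.308 ± 0.322) came last.

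**Figure D1:**
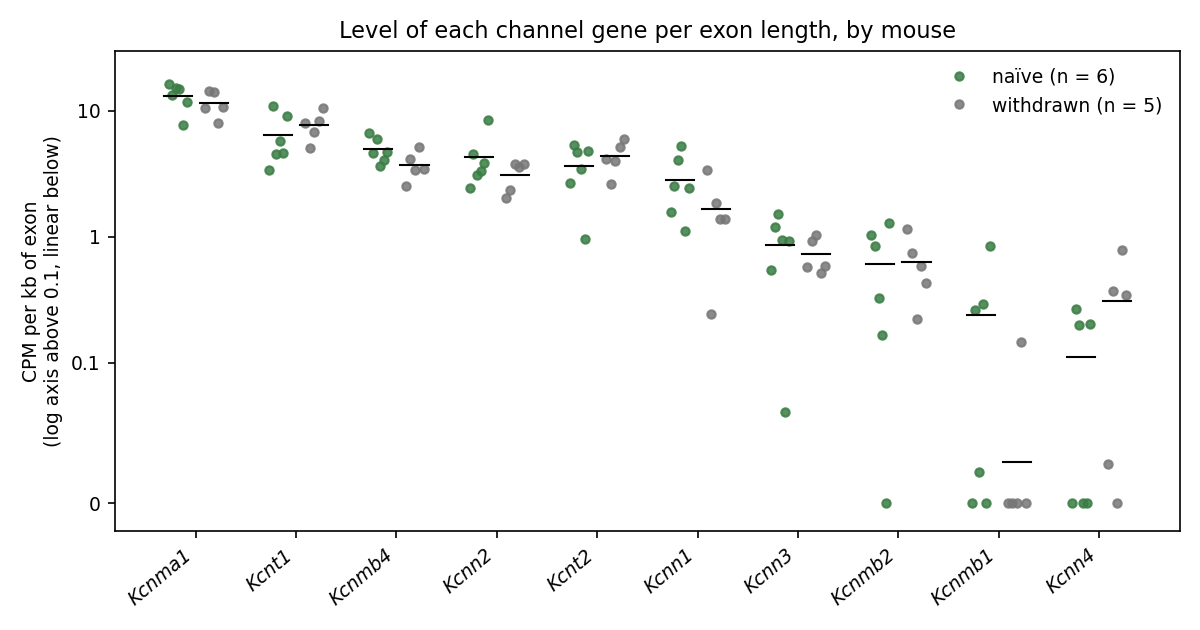
Level of each of the 10 channel genes in CPM per kb of exon, by mouse (green, 6 naïve; grey, 5 withdrawn; bar, group mean), on an axis that is logarithmic above 0.1 and linear below. Kcnma1 has the highest mean in both groups, at 13.2 CPM per kb in naïve and 11.6 in withdrawn mice, and Kcnmb1 is at 0 in 2 naïve and 4 withdrawn mice.

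The families differed in how far their highest gene led the others. Of the summed level per kb of Kcnmb1, Kcnmb2 and Kcnmb4, the last, the beta subunit of neurons, accounted for 86.6% ± 10.9 in naïve mice. In withdrawn mice this share was 84.7% ± 9.61, and Kcnmb4 was the highest of these genes in 11 of 11 mice. The beta subunit Kcnmb3, below the filter of the test, was left out of this sum. It was at 0.12 ± 0.19 CPM per kb in naïve and 0.69 ± 0.59 in withdrawn mice. The share of Kcnmb4 with Kcnmb3 added was not computed, and would be lower. Among Kcnn1, Kcnn2 and Kcnn3, Kcnn2 accounted for 54.6% ± 17.3 and 57.7% ± 13.9. It was the highest SK gene in 8 mice, and Kcnn1 was the highest in the other 3. Kcnt1 accounted for 63.9% ± 11.5 of the Slo2 level in naïve and 64.0% ± 1.63 in withdrawn mice, and exceeded Kcnt2 in 10 of 11. Kcnma1 made up 43.1% ± 10.3 and 39.5% ± 10.8 of the summed pore subunits.

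In withdrawn against naïve mice, none of the 10 genes passed the test. Of the 10, 9 had enough counts to be tested in edgeR, Kcnmb1 being left out. A gene was called when its adjusted p did not exceed 0.05 and its log2 fold change was past 0.6 in size, which held for 1 of 17093 genes (0.00585%). At an unadjusted p under 0.05, 0 of the 9 were found, against 7.22% of all tested genes. DESeq2 called 0 of the 10, against 1.66% of 21849 genes. The groups overlapped for all 10 genes, whereas they did not overlap for 0.948% of tested genes, 0.69% with the withdrawn mice higher. In the estimates, 4 of the 9 were higher in withdrawn mice and 5 lower, with a median log2 fold change of -0.19 against 0.02 over all tested genes. Single values were also compared by two-sided exact permutation tests of log2 CPM over the 462 splits of the mice, for which the smallest p is 0.002165. A p that misses the threshold does not show equal levels, and the 95% intervals of the log2 fold changes are given with each gene.

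**Figure D2:**
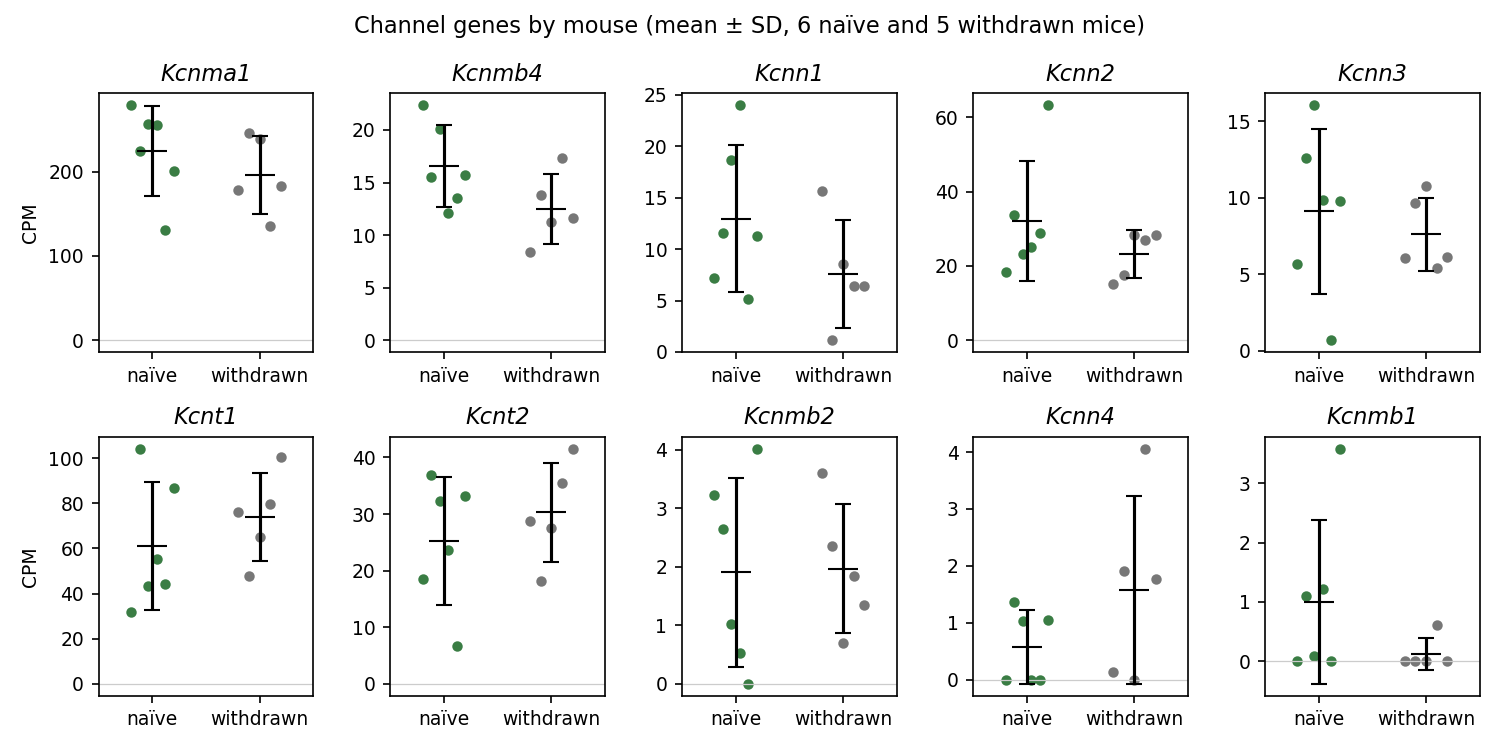
CPM of each channel gene by mouse, with mean and SD (green, 6 naïve mice; grey, 5 withdrawn mice; each panel has its own linear axis). The groups overlap in every panel, and 1 naïve mouse lies far above the others for Kcnn2, at 63.2 CPM.

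Kcnma1 carries the BK pore, the voltage sensor and the calcium-binding gating ring. Its CPM was 130.2 in the lowest naïve mouse, with a median of 239.7 and a highest value of 278.5. In withdrawn mice 1 to 5 it was 177.7, 245.8, 238.6, 135.9 and 182.5 CPM. All withdrawn values lay within the naïve range. For Kcnma1 the log2 fold change was -0.19 (SE 0.21, 95% interval -0.64 to 0.25, edgeR adjusted p = 0.911), and the exact permutation p was 0.424. The interval of the fold change ran from 0.641 to 1.19, the narrowest of the 9 genes on the log2 scale.

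Kcnmb4 encodes the beta 4 subunit, which slows BK gating and makes the channel resistant to the toxin iberiotoxin. In naïve mice it was 12.1 CPM at the lowest, 15.6 at the median and 22.3 at the highest. In withdrawn mice 1 to 5 it was 8.36, 13.8, 11.2, 17.3 and 11.6 CPM, so that 3 of 5 lay below the lowest naïve mouse. Kcnmb4 had a log2 fold change of -0.41 (SE 0.33, 95% interval -1.12 to 0.30, edgeR adjusted p = 0.868), and the exact permutation p was 0.0952. When single mice were left out, the unadjusted exact permutation p ranged from 0.0381 (without withdrawn mouse 4) to 0.214 (without withdrawn mouse 1), and no edgeR fit called the gene.

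Kcnmb2 encodes the beta 2 subunit, whose N-terminus inactivates BK channels. It was listed at 0 in 1 naïve mouse, with a median of 1.83 and a highest value of 4.01 CPM, and was 3.60, 2.35, 0.701, 1.84 and 1.34 CPM in withdrawn mice 1 to 5. The groups overlapped widely. Between the groups the log2 fold change was 0.05 (95% interval -2.07 to 2.16, edgeR adjusted p = 0.995). The 3 mice lowest for Kcnmb2, naïve 5 and 4 and withdrawn 3, were also the 3 lowest for the summed CPM of 5 inhibitory neuron markers (Gad1, Gad2, Slc32a1, Sst and Vip), at 73.3, 83.6 and 28.5 CPM. Over all mice this sum ranged from 73.3 to 922.5 CPM in naïve and from 28.5 to 667.7 CPM in withdrawn mice, with Gad1, Gad2, Slc32a1 and Vip higher and Sst lower in the withdrawn mean. This list was picked out of 9 after the values were seen. Over the 11 mice Pearson r of Kcnmb2 with the summed markers, on the log2 scale, was 0.826 for inhibitory neurons, 0.808 for endothelial cells and 0.681 for smooth muscle and pericytes. The part of these cells in the Kcnmb2 level was not tested.

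Kcnmb1, the beta 1 subunit known from smooth muscle, was below the filter of the test. It had 0, 20, 1, 21, 0 and 58 counts in naïve mice 1 to 6 and 0, 0, 0, 5 and 0 counts in withdrawn mice 1 to 5. Counts above the floor of 3 were thus found in 3 naïve mice and 1 withdrawn mouse. DESeq2 gave an adjusted p of 0.677, and the exact permutation p was 0.165. The summed CPM of 5 smooth muscle and pericyte markers was 0.203 to 72.1 in naïve and 3.69 to 186.5 in withdrawn mice, and the mouse highest for it in each group (naïve 6 and withdrawn 4) was the mouse highest for Kcnmb1. The same mice were highest for 5 endothelial markers, at 388.3 and 310.0 CPM. Other mice did not follow this order, since naïve mouse 1 (36.4 CPM of smooth muscle and pericyte markers) and withdrawn mouse 1 (37.8) had 0 counts of Kcnmb1 and naïve mouse 4 (6.81) had 21. Of these smooth muscle and pericyte markers 4 of 5 were higher in the withdrawn mean, which withdrawn mouse 4 raised, whereas the median of the sum was 30.9 CPM in naïve and 17.8 CPM in withdrawn mice. The part of those cells was not tested.

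Kcnn2, the SK2 pore subunit, had the smallest edgeR p of the 9 genes. It was 18.4 CPM in the lowest naïve mouse, 27.0 at the median and 63.2 in naïve mouse 6. In withdrawn mice 1 to 5 it was 15.3, 17.5, 28.5, 26.9 and 28.3 CPM. Withdrawn mice 1 and 2 lay below the naïve range and the other 3 within it. Its log2 fold change was -0.46 (SE 0.34, 95% interval -1.19 to 0.26, edgeR adjusted p = 0.852), and -0.15 without naïve mouse 6. Without the 3 withdrawn mice with conflicting labels it was -1.03, at an edgeR adjusted p of 0.789.

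Kcnn1, the SK1 pore subunit, was 5.15 CPM at the lowest, 11.4 at the median and 24.0 at the highest in naïve mice. It was 15.6, 1.12, 8.50, 6.39 and 6.37 CPM in withdrawn mice 1 to 5. Withdrawn mouse 2 alone lay below the naïve range. This gave a log2 fold change of -0.77 (SE 0.60, 95% interval -2.05 to 0.51, edgeR adjusted p = 0.864), and the exact permutation p was 0.173. Single mice moved the estimate, which was -0.50 without naïve mouse 4 or withdrawn mouse 2 and -1.21 without withdrawn mouse 1.

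Kcnn3, the SK3 pore subunit, was 0.677 CPM in naïve mouse 5, the equivalent of 10 counts, with a naïve median of 9.80 and a highest value of 16.0. It was 6.05, 9.63, 10.7, 5.41 and 6.16 CPM in withdrawn mice. The withdrawn values all lay within the naïve range. Kcnn3 had a log2 fold change of -0.26 (95% interval -1.57 to 1.05, edgeR adjusted p = 0.966). The mean log2 CPM differed in the opposite direction, by 0.14, with an exact permutation p of 0.935. Without naïve mouse 5 both were below 0, at -0.49 in edgeR and -0.47 in log2 CPM.

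Kcnn4, the intermediate-conductance channel of blood and other non-neuronal cells, was read in few counts. It had 0, 25, 11, 0, 0 and 17 counts in naïve mice 1 to 6 and 2, 17, 0, 33 and 25 in withdrawn mice 1 to 5. In CPM 3 withdrawn mice (1.90, 4.06 and 1.77) lay above the highest naïve mouse and the other 2 were at or below the floor. In edgeR the log2 fold change was 1.42 (95% interval -1.66 to 4.50, edgeR adjusted p = 0.903), and the exact permutation p was 0.325. The estimate was 0.72 without withdrawn mouse 4 and 0.19 with limma voom. The summed CPM of 5 microglial markers was 0 to 6.47 in naïve and 6.87 to 17.5 in withdrawn mice. Of these markers 3 of 5 were higher in the withdrawn mean, Tmem119 with the widest gap, and P2ry12 was at 0 in 4 naïve and 4 withdrawn mice. Single mice did not follow this sum, since naïve mouse 6 (0.0618 CPM) had 17 counts of Kcnn4 and withdrawn mouse 3 (6.87 CPM) had 0. Microglia are 1 of 9 marker lists. Over the 11 mice Pearson r of Kcnn4 with the summed markers, on the log2 scale, was 0.499 for microglia. It was 0.56 for endothelial cells and 0.559 for oligodendrocyte precursors. The part of these cells in the Kcnn4 level was not tested.

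Kcnt1, the sodium-activated channel Slack, was 32.0 CPM at the lowest, 49.8 at the median and 104.1 at the highest in naïve mice. In withdrawn mice 1 to 5 it was 76.1, 47.9, 65.1, 79.7 and 100.4 CPM. All withdrawn values lay within the naïve range. The log2 fold change was 0.28 (SE 0.30, 95% interval -0.37 to 0.92, edgeR adjusted p = 0.911), a fold change of 1.21 with an interval of 0.773 to 1.89. Without the 3 withdrawn mice with conflicting labels it was -0.02.

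Kcnt2, the sodium-activated channel Slick, was 6.64 CPM at the lowest, 28.0 at the median and 37.0 at the highest in naïve mice, and 28.7, 18.2, 27.5, 35.5 and 41.5 CPM in withdrawn mice 1 to 5. Withdrawn mouse 5 alone lay above the naïve range. The log2 fold change was 0.27 (95% interval -0.56 to 1.09, edgeR adjusted p = 0.940), and -0.14 without the 3 mice with conflicting labels.

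**Figure D3:**
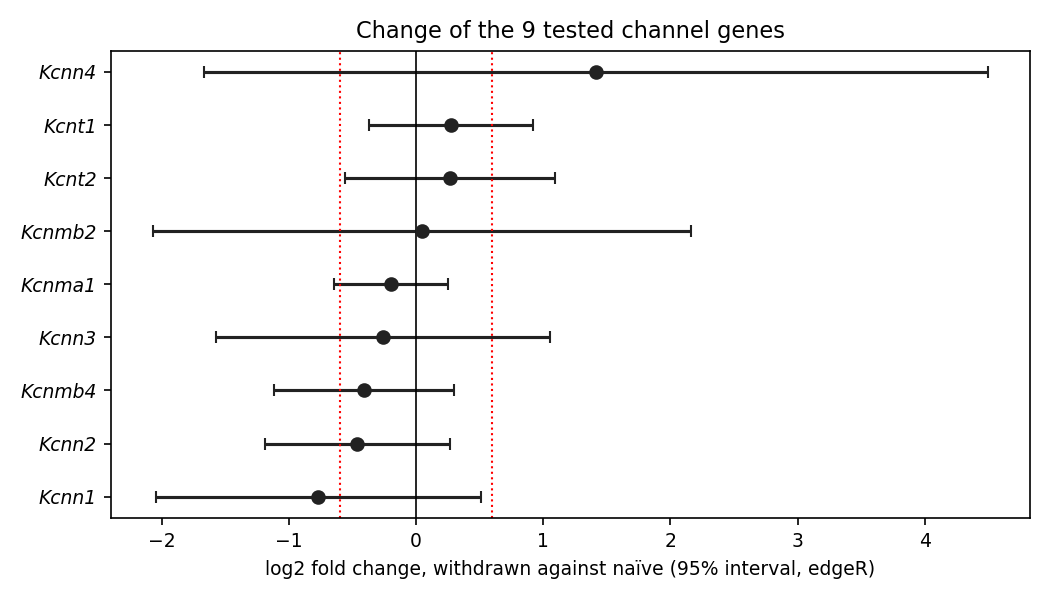
Log2 fold change of the 9 tested channel genes, withdrawn against naïve mice, with 95% intervals from edgeR (dotted lines, -0.6 and 0.6). Every interval includes 0, and it is narrowest for Kcnma1 (-0.64 to 0.25) and widest for Kcnn4 (-1.66 to 4.50).

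Ratios between channel genes within a mouse, which do not depend on library scaling, did not pass a test either. The log2 ratio of Kcnmb4 to Kcnma1 counts was -3.75 ± 0.37 in naïve and -3.98 ± 0.60 in withdrawn mice (exact permutation p = 0.424, 0.851 after Benjamini-Hochberg adjustment over 4 ratios). For Kcnn1 to Kcnn2 it was -1.37 ± 1.03 and -1.96 ± 1.40 (exact p = 0.461, adjusted 0.851). The difference of -0.59 became -0.11 without withdrawn mouse 2 and -1.09 without withdrawn mouse 1. Kcnn3 to Kcnn2 was at -2.17 ± 1.70 and -1.62 ± 0.61 (exact p = 0.639, adjusted 0.851). Kcnt1 to Kcnt2 was nearly the same in mean, 1.34 ± 0.79 and 1.29 ± 0.10 (exact and adjusted p = 0.898). Its range was 0.42 to 2.73 in naïve and 1.16 to 1.40 in withdrawn mice, a difference in spread for which no test was run. Naïve mouse 5 alone was at 2.73, and the other 5 naïve mice lay between 0.42 and 1.49.

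**Figure D4:**
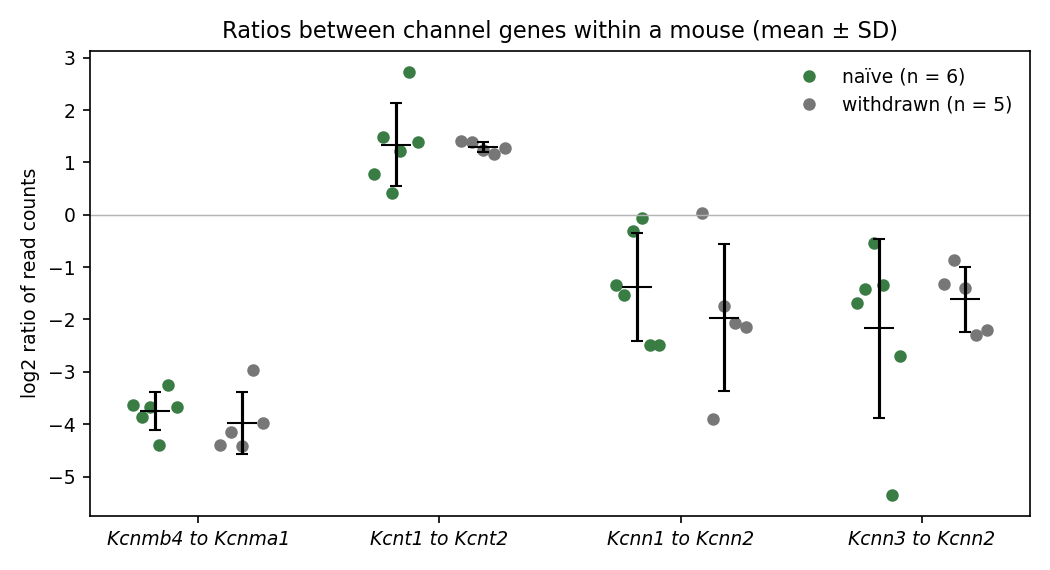
Log2 ratio of read counts of 4 pairs of channel genes within each mouse, with mean and SD (green, 6 naïve; grey, 5 withdrawn). The groups overlap for each pair, and the withdrawn values of Kcnt1 to Kcnt2 lie within 1.16 to 1.40.

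Across the 11 mice the channel genes varied together only in part. Of 36 pairs of the 9 tested genes, 27 had a positive Pearson r of log2 CPM, with a median of 0.23. The highest was 0.782 for Kcnn3 with Kcnt2, followed by 0.724 for Kcnma1 with Kcnn3, and the lowest was -0.434 for Kcnmb4 with Kcnt1. Naïve mouse 5, which had the fewest detected genes, was the lowest mouse for 4 of the 9 genes, and all pairs share the same libraries. Among 10207 genes with a mean of at least 10 CPM, the 3 most like Kcnma1 were Dnajc5 (r = 0.972), a synaptic vesicle chaperone, Scn8a (r = 0.95), a sodium channel of the axon initial segment, and Ttc3 (r = 0.939). The 3 most like Kcnn2 were Rgl1 (r = 0.893), 4921524J17Rik (r = 0.879) and Prpf39 (r = 0.875). These values describe 11 libraries that also share differences in depth and composition.

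The other genes of the pathway were 43 genes in 5 lists chosen with earlier results of these data known. Of these genes 40 could be tested. None was called by edgeR, 17 were higher and 23 lower in withdrawn mice, and 3 had an unadjusted p under 0.05, a share near the 7.22% of all tested genes. DESeq2 called 1, Lrrc38, against 1.66% of all genes.

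Lrrc38 encodes a gamma subunit that shifts BK opening to more negative voltages, and it was read almost only in withdrawn mice. Its counts were 0, 2, 1, 42, 0 and 0 in naïve mice 1 to 6 and 231, 15, 408, 232 and 127 in withdrawn mice 1 to 5. In CPM this was 0.442 ± 0.983 (SD, n = 6) and 15.0 ± 10.2 (n = 5). The groups overlapped in 1 pair of mice, since withdrawn mouse 2 (1.68 CPM) lay below naïve mouse 4 (2.45 CPM). Lrrc38 passed the filter on low counts through the withdrawn mice, with 1 of 6 naïve mice above the floor of 3 counts, so a difference was built into its being tested, and its fold rests mostly on the counts of naïve mouse 4. The log2 fold change was 5.01 (SE 1.32, 95% interval 2.17 to 7.85) with an unadjusted p of 0.00204 and an adjusted p of 0.236 in edgeR. DESeq2 gave 5.13 and an adjusted p of 0.00409, and the exact permutation p was 0.00649. The list that holds Lrrc38 was chosen with earlier results of these data known, so these p-values are not an independent test. With single mice left out the edgeR adjusted p ranged from 0.0595 (without naïve mouse 4, log2 fold change 8.19) to 0.623 (without withdrawn mouse 4), and it was 0.789 without the 3 mice with conflicting labels. Lrrc38 (chr4:143349757-143371032, plus strand) shares no exonic base with another gene.

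The summed CPM of 6 fibroblast markers was 0.0677 to 59.3 in naïve and 10.9 to 1283 in withdrawn mice, with 4 of 6 higher in the withdrawn mean and Lum and Igf2 lower. For 5 astrocyte markers it was 9.41 to 153.4 and 12.7 to 355.3, with Gja1 alone higher in the withdrawn mean. These ranges overlapped. Those of the microglial markers given above did not, but lay close, at up to 6.47 CPM in naïve and from 6.87 CPM in withdrawn mice. Tmem119 had means of 0.543 and 7.39 CPM, and the other microglial markers had means of at most 0.977 CPM in either group. Withdrawn mouse 2, the lowest of its group for Lrrc38, was also the lowest of its group for the fibroblast and astrocyte sums, both within the naïve range. Over the 11 mice Pearson r of Lrrc38 with the summed markers, on the log2 scale, was 0.891 for fibroblasts. It was 0.781 for microglia and 0.669 for astrocytes, and the difference of Lrrc38 between the groups enters these values. These lists had the highest r of the 9 marker lists and were picked out after the values were seen. The part of these cells in the Lrrc38 level was not tested. Of the other Slo and BK subunits, 3 of 6 could be tested. Kcnu1, the sperm channel Slo3, was at a log2 fold change of 0.78 (edgeR adjusted p = 0.921).

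The partners of SK gating include calmodulin, casein kinase 2, protein phosphatase 2A and alpha-actinin 2, which set the calcium sensitivity of the channel or anchor it. All 8 reported were lower in the withdrawn mice in the estimate (48.2% of all tested genes were), with a median log2 fold change of -0.32, and 2 of the 8 had an unadjusted p under 0.05, against 7.22% of all tested genes. None passed the adjusted threshold. For Ppp2ca, a protein phosphatase 2A gene among the 8, 41.3% of exonic bases also belong to other genes, and reads on these bases cannot be told apart. Calm2 was 2850 CPM in the lowest naïve mouse, 3241 at the median and 6242 at the highest, and 2783, 2724, 2724, 2161 and 3309 CPM in withdrawn mice 1 to 5. Withdrawn mouse 5 alone lay within the naïve range, and the log2 fold change was -0.49 (edgeR adjusted p = 0.651). Calm3, named after its values were seen, was 620.9 ± 64.3 and 494.7 ± 88.9 CPM, a log2 fold change of -0.33 (edgeR adjusted p = 0.676). The 8 were also lower with DESeq2 and without the 3 mice with conflicting labels, but 7 were lower without naïve mouse 1, and the number with a p under 0.05 ranged from 0 to 2 when single mice were left out.

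The Slack partners include the fragile X protein Fmr1, which binds the C-terminus of Slack. All 4 could be tested and all had estimates above 0, but 1 was below 0 with TMMwsp scaling and without any 1 of 5 mice (naïve 3 and 5, withdrawn 1, 3 and 4), and 2 were without the 3 mice with conflicting labels. Fmr1 was 74.8 ± 12.1 CPM in naïve and 90.0 ± 12.0 CPM in withdrawn mice, a log2 fold change of 0.27 (edgeR adjusted p = 0.807), and Fxr2 was at 0.26 (edgeR adjusted p = 0.833).

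The 14 calcium sources, voltage-gated calcium channels and the ryanodine and IP3 receptors of internal stores, were higher in 8 and lower in 6, with 0 under an unadjusted p of 0.05 in edgeR and in DESeq2. The split was 4 higher and 10 lower without naïve mouse 5, and 5 higher and 9 lower without withdrawn mouse 2. Cacna1e, the R-type channel, was at a log2 fold change of -0.32 (edgeR adjusted p = 0.820), and the IP3 receptor Itpr2 was at 1.51 (edgeR adjusted p = 0.845). Of the 11 calcium buffers, pumps and exchangers, 3 were higher and 8 lower, with 0 under an unadjusted p of 0.05 in edgeR and 1 in DESeq2. Without naïve mouse 5, 3 of the 11 had an unadjusted edgeR p under 0.05, with 2 higher and 9 lower, and without withdrawn mouse 2 the split was 1 higher and 10 lower. The sodium-calcium exchanger Slc8a3 was 0 CPM in the lowest naïve mouse, 5.07 at the median and 11.1 at the highest, and 27.3, 10.9, 11.1, 13.9 and 11.4 CPM in withdrawn mice 1 to 5. Its log2 fold change was 1.46 (edgeR adjusted p = 0.776). Its relative Slc8a2 was at -0.73 (edgeR adjusted p = 0.805).

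**Figure D5:**
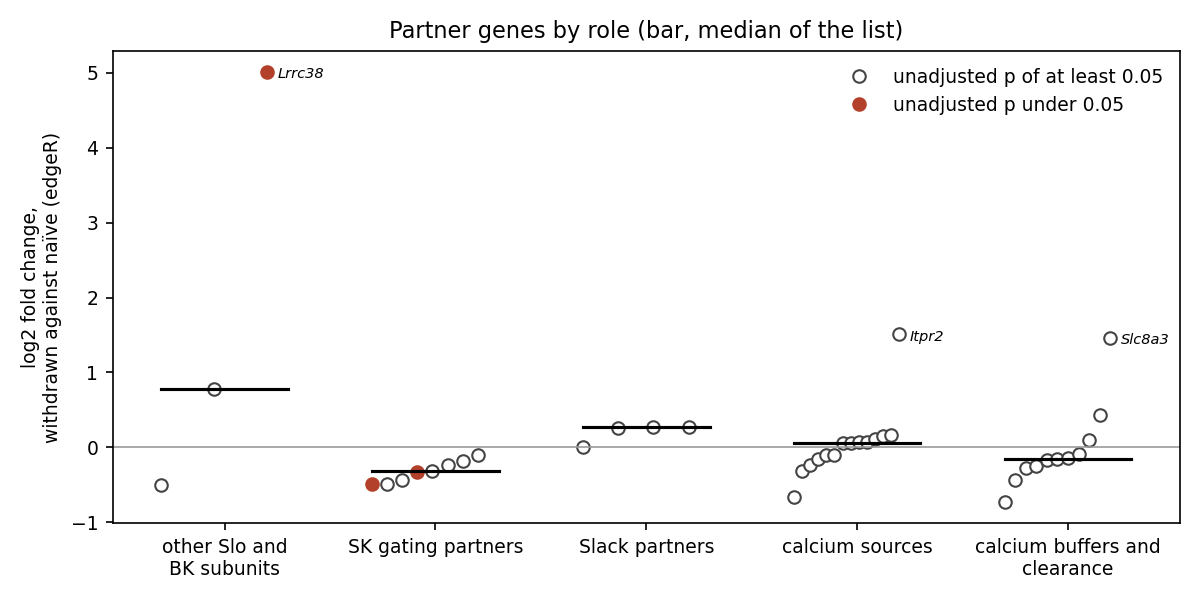
Log2 fold change, withdrawn against naïve mice, of the 40 tested partner genes in 5 lists (bar, median of the list; filled red, unadjusted edgeR p under 0.05). Lrrc38 lies at 5.01, and all 8 SK gating partners lie below 0 with a median of -0.32.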

How the data were processed

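The authors trimmed single reads with cutadapt, aligned them to GRCm38 with STAR and counted them per Ensembl gene with HTSeq. Whether the counting used strand is not given in the sources used here. The deposited values are raw counts per gene and mouse, without normalization. Reads with no feature, 5.77% to 48.1% per mouse, stayed out of library sizes and tests. Symbols and coordinates came from GENCODE M21, which names 53274 of 53465 identifiers. Sample titles set the groups. A second label calls 3 withdrawn mice controls, and the deposit's design text has the group sizes reversed. Over 55 pairs of libraries, chi-square per degree of freedom was at least 29.3, so none was counted as a duplicate.

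Withdrawn mice were compared with naïve mice in edgeR 4.0.16 (R 4.3.3) with TMM scaling, filterByExpr by group (minimum count 10, minimum total 15), the quasi-likelihood test and Benjamini-Hochberg adjustment over 17093 genes. DESeq2 1.42.0 and limma 3.58.1 were used for alternatives, which also covered scaling, filters, a covariate, a replicate block and leaving out mice. CPM used TMM library sizes, log2 CPM a prior count of 2, and ratios of counts an offset of 0.5. Counts come from amplified cDNA, so floors cover counting error only. The edgeR and DESeq2 p-values set the difference between groups against the spread between mice, and the exact p-values set it against the splits of the mice.

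The channel genes and the partner and marker lists were chosen with earlier results of these data known. All 10 channel genes are named, with the 2 partners of smallest p per list, partners that were called or whose groups did not overlap, and the 3 genes most like Kcnma1 and Kcnn2. In the SK gating list 1 gene is not reported here, and the counts of that list and of all partners leave it out. Physiology, imaging and behavior were not analysed here.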

Additional observations from a re-analysis of the deposited data

Results flagged for a closer look

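A single mouse was tested for distance from the rest of its group by the gap to its nearest neighbour (Dixon's 95% limit). This was done in 30 sets, each with the log2 CPM of 1 gene or a log2 ratio between channel genes in 1 group. Chance alone marks about 5%, or 1.5 sets, and 3 were found. That share does not hold for sets with ties at 0 counts, such as Kcnmb1 in withdrawn mice (4 of 5 at 0) and Lrrc38 in naïve mice (3 of 6 at 0), so nothing is read from the number. All 3 were log2 CPM values. Kcnmb1 in withdrawn mouse 4 was at -0.398, the only withdrawn mouse with counts for it. Kcnn3 in naïve mouse 5 was at -0.284, the mouse with the fewest detected genes. Lrrc38 in naïve mouse 4 was at 1.37, the only naïve mouse above the floor of 3 counts.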

How the results depend on the processing

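No channel gene was called under any of 21 alternatives. edgeR called 1 gene of all tested (Ptgdr), and DESeq2 called 362 (342 higher), 372 without its Cook's distance cutoff. It was 137 without a filter, 30 with at least 10 counts in every mouse, 26 with the number of detected genes as a covariate, 0 when the 3 mice with conflicting labels were left out, and 0 to 193 with each mouse left out, 193 without withdrawn mouse 2. DESeq2 size factors, TMMwsp and voom each gave 1 (Ptgdr, but Loxl1 with voom). Partner genes called were 1 (Lrrc38) in both DESeq2 fits and 0 in the others, and the log2 fold change of Lrrc38 was 4.29 to 8.19 throughout.

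Some small differences changed sign. For Kcnmb2 the log2 fold change was -0.10 with the covariate and -0.32 to 0.41 with each mouse left out, and its log2 CPM difference was -0.0775 to 0.89. Without the 3 mice with conflicting labels, Kcnt1 was at -0.0216, Kcnt2 at -0.14 and their log2 ratio at 0.0559. With each mouse left out, that ratio was -0.23 to 0.23, Kcnn3 to Kcnn2 was -0.0827 to 0.88 and the log2 CPM difference of Kcnn3 was -0.47 to 0.39. The cause was not tested.

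Same-numbered mice are different animals, and their deviations correlated at -0.00905, -0.0618, -0.2, 0.0378 and 0.182, so the numbers do not pair them. With a replicate block 0 genes were called, and the log2 fold change of Kcnn3 was 0.14. Kcnmb1 was too low for the fits with a filter, and Kcnmb2, Kcnn4 and Lrrc38 for the one with 10 counts in every mouse. For Kcnmb1, Kcnmb2 and Kcnn4 few counts limit what could be detected.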
